A study of Mus musculus with 9 samples.

Results

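The comparison described here sets the RANKL culture, labelled by the submitters as the intestinal M cell, against the ENRI culture, labelled as the enterocyte. Both were grown as mini-guts (organoids) from mouse duodenum, and nascent transcription was read by GRO-seq, a nuclear run-on assay that captures RNA being made by engaged polymerase. Each culture had 2 libraries: RANKL 1 and 2, which carry replicate numbers only, and ENRI 1 and 2, which come from mouse 1 and mouse 2. Another culture, WENRC, labelled as the intestinal stem cell, also had 1 library from each of these mice and is used here to place the other pair. The culture abbreviations are used as names. Strain, age and genotype of the mice, media and days in culture are not given in the sources used here. All genes of the deposited table that were not at 0 in all 6 libraries belong to the comparison, which makes 22374 of 24505 genes, and 16563 of them passed a filter on low values and were tested.

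M cells are rare cells of the epithelium over lymphoid follicles that take up particles from the gut lumen and hand them to immune cells. The cytokine RANKL, read by the receptor RANK on the epithelial cell, drives their formation through NF-kB, a family of transcription factors held back by inhibitors of the IkB family. Enterocytes are the absorptive cells of the villus. Their work rests on a brush border of actin-filled microvilli, on surface enzymes and transporters, on the assembly of dietary fat into chylomicrons, and on enzymes that oxidise and conjugate foreign compounds.

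Values are the authors' deposited log2 values, differences are RANKL minus ENRI on that scale (a difference of 1 is a 2-fold change), and a gene was called at a limma adjusted p under 0.05. The values are shrunken for genes with few reads, so folds of low genes are understated. The depth of the libraries is unknown. Of the 16563 tested genes, 3464 (20.9%) were called. RANKL was the higher culture in 1717 of them (10.4%) and the lower in 1747 (10.5%). The median difference was 1.06 among the genes called higher and -1.14 among those called lower, and 2011 called genes differed by 1 or more. With the 4 libraries of the pair alone in the fit, 1925 genes (11.6%) were called, and 1910 of these were called the same way in the fit of 6. The number of calls rested on the RANKL libraries most: without RANKL 1 it was 111 and without RANKL 2 it was 64, with all of these called in the same direction as in the full fit. Without WENRC 1 it was 1915, without WENRC 2 it was 1929, and without ENRI 1 it was 6966. The SD of the difference between replicates over genes was 0.22 in RANKL and 0.699 in ENRI, and 77.9% of the genes called lower differed more from ENRI 2 than from ENRI 1. The plot of list medians therefore shows each list against each ENRI library. Per the file header, the RANKL libraries come from combined repeat sequencing, and the ENRI and WENRC libraries carry other dates, with 1 library of each of these cultures per date. Sequencing run and RANKL culture cannot be told apart, and nothing says that the RANKL libraries came from separate cultures, so p-values measure the spread between these libraries only. In simulated data 16.9% of the calls at the same threshold fell on unchanged genes, so single calls are less certain than an adjusted p of 0.05 implies.

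The labels were set against cell type markers. All 7 M cell markers were called higher in RANKL. Of these, *Sox8* (2.57 and 2.83 in ENRI) and *Gp2* (2.56 and 3.72 in ENRI) would not have passed the filter on low values without the RANKL libraries. Their calls are therefore no independent support for the label. Of 7 enterocyte markers, 3 were called lower, and the differences of all 7 were below 0. *Alpi*, the intestinal alkaline phosphatase, read 10.60 and 10.91 in RANKL against 11.25 and 11.38 in ENRI, and *Sis*, sucrase-isomaltase, read 13.79 and 13.82 against 14.52 and 15.45. On the sum of linear values, the M cell markers reached 13.06 and 13.14 (log2) in RANKL and 10.11 and 9.76 in ENRI. The enterocyte markers reached 14.48 and 14.63 in RANKL, 15.49 and 16.27 in ENRI, and 12.72 and 11.33 in WENRC. The goblet markers reached 13.46 and 13.45 in RANKL and 13.58 and 13.07 in ENRI. The 5 fibroblast markers (*Col1a1*, *Col1a2*, *Col3a1*, *Pdgfra* and *Dcn*) did not exceed 3.07 in any library and were not tested. In a further list of fibroblast and muscle genes, 1 of 5 was called higher (*Pdgfrb*, 9.21 and 9.26 against 6.90 and 7.68) and 1 lower (*Fbln1*, 8.48 and 8.67 against 10.19 and 11.57). In bulk libraries, fewer cells of a type and less RNA per cell cannot be told apart, and this holds for every result below.

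Pathways and gene families were read through 60 gene lists with 2007 different tested genes. Of these, 621 (30.9%) were called, against 2843 of the 14556 other tested genes (19.5%). The lists were chosen with earlier results of these data known, so the higher share in them may come from that choice. Seen by their medians, M cell genes, NF-kB subunits and inhibitors, and crypt, mitosis, Paneth and tuft genes stood on the side of RANKL. Absorption, lipid, drug metabolism, antioxidant and immediate early genes stood on the side of ENRI. Most trafficking, junction, mitochondrial and immune lists had medians nearer to that of all tested genes, which was -0.00481.

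**Figure D1:**
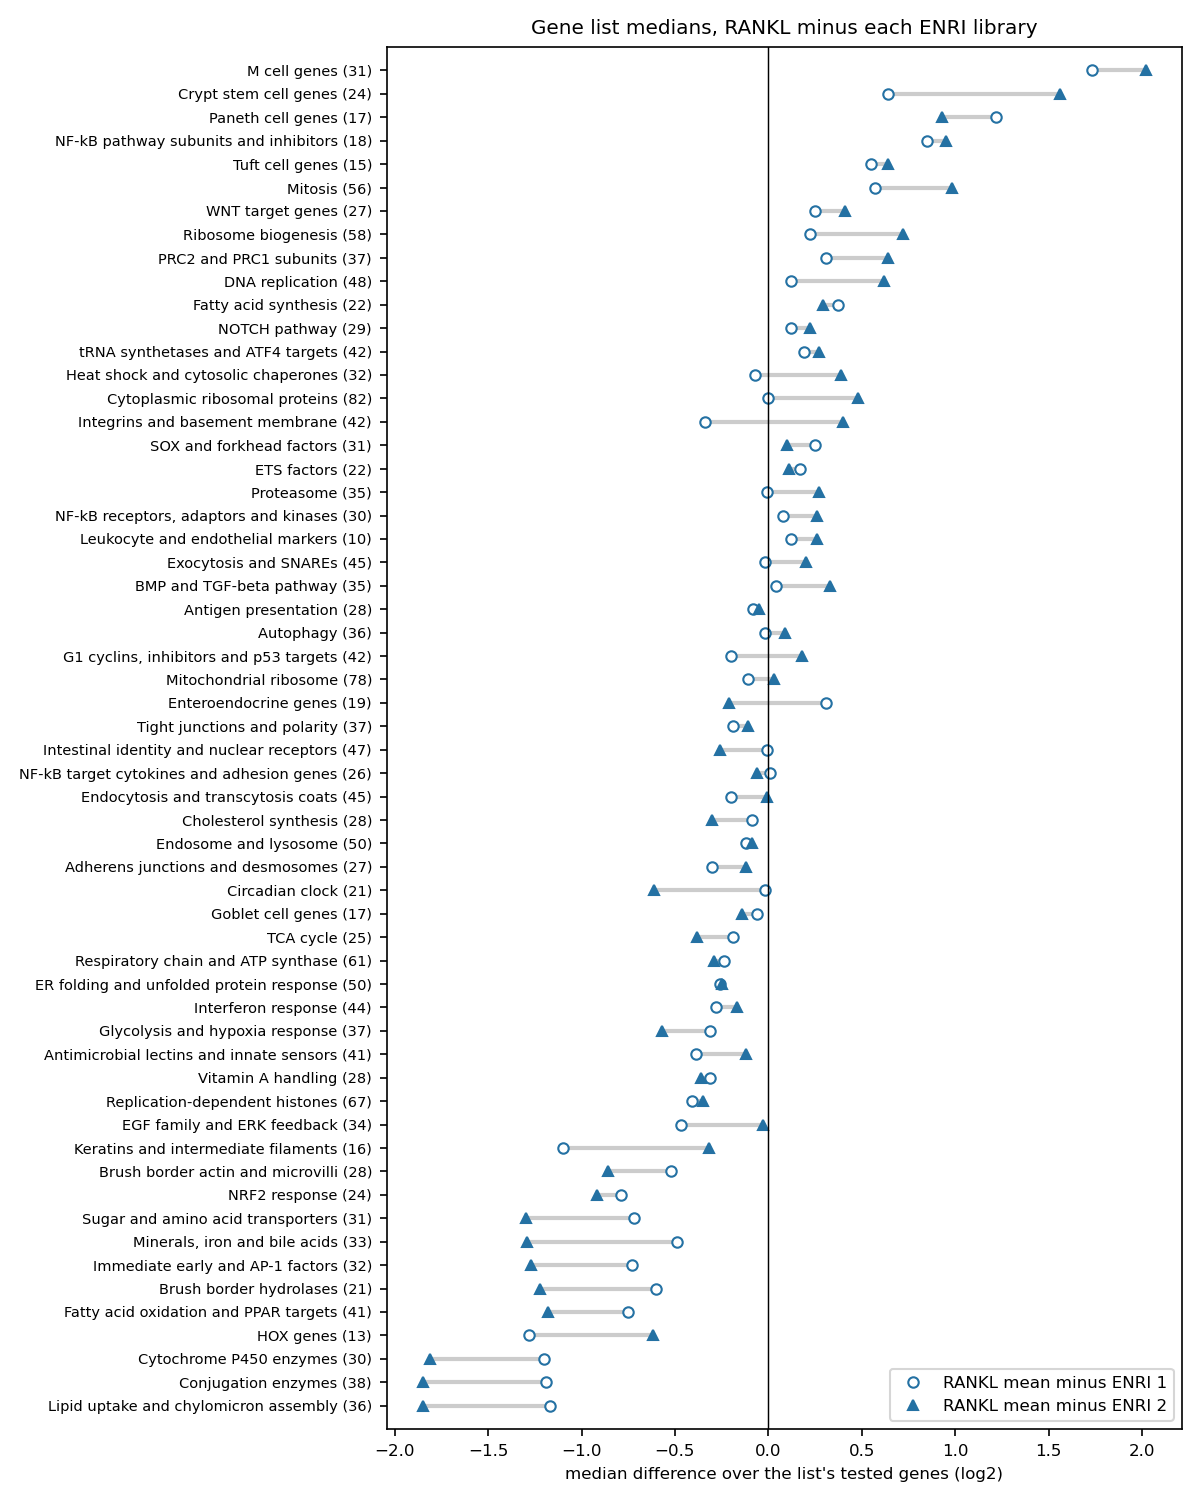
Median difference (log2) over the tested genes of each list, RANKL mean minus ENRI 1 (open circles) and minus ENRI 2 (triangles), with the number of tested genes in parentheses; lists with fewer than 10 tested genes and 1 other list are not drawn. M cell genes reach 1.73 and 2.02, lipid uptake and chylomicron assembly -1.17 and -1.85, and the integrin list lies on opposite sides of 0 for the ENRI libraries.

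M cell genes had the largest median of the lists. Of 31 tested, 22 were called higher and none lower by limma (1 lower at an unadjusted p under 0.05, and 1 in the authors' deposited table), with a median of 2.14. Among them *Sox8* and *Gp2* passed the filter on low values only with the RANKL libraries. The median was 1.73 against ENRI 1 and 2.02 against ENRI 2, and 18 were called with the 4 libraries alone. *Tnfaip2*, a TNF-induced gene used as an M cell marker (NM_009396, chr12:112680872-112693229, plus strand, mm9), read 9.88 and 9.96 in RANKL against 5.13 and 4.98 in ENRI, a difference of 4.87 (SE 0.21, limma adjusted p = 0.000963). *Spib*, the ETS factor needed for M cell maturation, read 9.62 and 9.79 against 5.12 and 5.38 (difference 4.45, SE 0.21). For *Tnfrsf11a*, which encodes RANK itself, the values were 12.42 and 12.43 against 9.76 and 9.45 (difference 2.82, SE 0.15). In these 3 genes WENRC stood with ENRI, far below RANKL. Of the 31 genes, 26 lay above 0, and the lowest difference was -2.7. The 9 genes not called included *Ctsd*, a lysosomal protease (-0.11), and *Clu*, clusterin, whose ENRI values of 12.08 and 7.08 lay far apart. Both were picked after their values were seen.

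The core of the NF-kB pathway was also higher in RANKL. Of 18 subunits and inhibitors, 11 were called higher and 2 lower, with a median of 0.99 (0.85 against ENRI 1 and 0.95 against ENRI 2). *Nfkbia*, which encodes the inhibitor IkB alpha and is itself a target of NF-kB (NM_010907, chr12:56590396-56593634, minus strand, mm9), read 11.28 and 11.32 in RANKL and 9.31 and 9.41 in ENRI, 3.84-fold higher (adjusted p = 0.00204, limma). *Tnip1*, an adaptor that restrains NF-kB signalling, read 12.82 and 12.88 against 10.92 and 10.91 (3.82-fold). The subunit *Nfkb2*, which gives p52 of the alternative pathway, read 9.90 and 10.12 against 8.46 and 8.25 (3.14-fold), and it overlaps *Psd*, whose reads may be counted with it. The 2 called lower were *Nfkbiz*, an atypical IkB protein, at 10.77 and 10.71 against 11.43 and 11.72, and *Tnip3*, a relative of *Tnip1* chosen after its values were seen, at 5.49 and 5.39 against 9.60 and 7.30. Receptors, adaptors and kinases of the pathway were mixed, with 7 of 30 called higher and 4 lower and a median of 0.11. Besides RANK, *Birc3*, an ubiquitin ligase of the TNF receptor complexes, read 11.79 and 11.78 against 10.74 and 10.69. Its neighbour in the pathway *Traf4* differed the other way by -0.67 (8.93 and 9.03 against 9.72 and 9.57).

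Classical NF-kB target cytokines and adhesion genes were mixed: 5 of 26 were called higher and 5 lower, with a median of -0.12. *Icam1*, the leukocyte adhesion receptor ICAM-1, read 9.21 and 9.09 in RANKL against 4.61 and 3.72 in ENRI, a difference of 4.98 (SE 0.39). *Nos2*, inducible nitric oxide synthase, read 9.62 and 9.57 against 7.93 and 7.80, and *Ccl20*, the chemokine that draws CCR6-bearing lymphocytes to follicles, read 9.0 and 8.92 against 7.78 and 8.05. *Il33*, an alarmin of the IL-1 family, was the reverse at 4.56 and 4.78 against 7.11 and 6.83. The RANKL and ENRI values of these 4 genes did not overlap, which held for all 3464 called genes and for 64.7% of all tested genes.

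Promoters of 2 of these genes are shown because they hold the letters of a kB site, the sequence that NF-kB dimers bind. They are the RefSeq promoters of GRCm38.p6 (a later build than the mm9 of the files), 250 bases before to 50 after the start, with GGANTTTCC on either strand in capitals. Both genes were picked after their values were seen.
Nfkbia (chr12:55492598-55492897, minus strand): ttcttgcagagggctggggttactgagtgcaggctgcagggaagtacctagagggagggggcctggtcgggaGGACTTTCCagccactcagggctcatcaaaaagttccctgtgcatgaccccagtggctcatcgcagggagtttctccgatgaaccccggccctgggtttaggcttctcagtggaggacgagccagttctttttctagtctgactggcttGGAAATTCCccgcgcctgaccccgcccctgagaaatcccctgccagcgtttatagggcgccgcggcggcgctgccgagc
Tnfaip2 (chr12:111442411-111442710, plus strand): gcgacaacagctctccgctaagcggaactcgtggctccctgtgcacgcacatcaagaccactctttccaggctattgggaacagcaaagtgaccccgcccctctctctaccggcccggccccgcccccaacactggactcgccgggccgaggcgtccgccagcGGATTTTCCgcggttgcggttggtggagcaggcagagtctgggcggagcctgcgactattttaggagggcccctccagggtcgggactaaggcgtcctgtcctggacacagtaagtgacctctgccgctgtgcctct
The matches in the *Nfkbia* promoter are GGACTTTCC and GGAAATTCC, and that in *Tnfaip2* is GGATTTTCC. Of the 16563 tested genes, 12527 had a promoter in the table, and the motif was in 1.56% of them. It was in 1.59% of the genes called higher and 1.48% of those called lower. In the list of NF-kB subunits and inhibitors it was in 4 of 14 genes (28.6%): *Nfkb2*, *Nfkbia* and *Tnfaip3*, all called higher, and *Cyld*, which differed by -0.20. Of the 10 genes of that list without it, 6 were called higher and 1 lower. Among NF-kB target cytokines and adhesion genes, where calls were split, it was in 5 of 18 (27.8%). Among M cell genes it was in 3 of 23.

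Genes of the crypt stem cell were higher in RANKL than in ENRI. Of 24 tested, 9 were called higher and none lower by limma (0 lower at an unadjusted p under 0.05, and 0 in the authors' deposited table), and the median was 1.16. ENRI 2 weighed on this: the median was 0.64 against ENRI 1 and 1.56 against ENRI 2. *Tnfrsf19*, also known as TROY, a marker of these stem cells (NM_013869, chr14:61582671-61665692, minus strand, mm9), read 10.89 in both RANKL libraries, 6.57 and 6.06 in ENRI, and 8.92 and 9.48 in WENRC. *Msi1*, the RNA-binding protein Musashi-1, read 10.02 and 10.09, against 5.87 and 6.36 in ENRI and 8.63 and 9.11 in WENRC. For both genes RANKL stood above the stem cell culture as well, unlike most of the list: WENRC lay above both other cultures in 14 of the 24 genes, and the median difference RANKL minus WENRC was -0.15. *Axin2*, a feedback inhibitor of WNT signalling, read 11.93 and 12.08 in RANKL, 9.14 and 8.62 in ENRI, and 11.64 and 12.02 in WENRC, so that RANKL and WENRC overlapped. *Lgr5*, the receptor that defines these stem cells, was not called: it read 8.75 and 8.84 in RANKL, 8.89 and 8.51 in ENRI, and 11.64 and 11.99 in WENRC. It was picked after its values were seen, as a marker whose level stood apart from those of its list.

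Among 27 WNT target genes, 4 were called higher (14.8%) and 1 lower (3.7%), and the median of 0.55 was 0.25 against ENRI 1 and 0.41 against ENRI 2. *Nkd1* (7.49 and 7.48 against 5.25 and 5.41) and *Ephb3* (9.51 and 9.38 against 7.94 and 7.17), a feedback inhibitor of the pathway and a receptor that positions crypt cells, went with *Axin2*. *Sp5*, a factor induced directly by WNT, went the other way (5.51 and 5.27 against 6.86 and 7.24). The NOTCH list had 6 of 29 called higher and 1 lower (24.1% called, against 20.9% of all tested genes), with a median of 0.25. *Rbpj*, its DNA-binding effector, read 10.99 and 10.95 against 9.67 and 8.84, while *Hes1*, its canonical target, read 7.06 and 7.30 against 8.46 and 8.32. In the BMP and TGF-beta list 8 of 35 were called higher and 1 lower (25.7% called), with a median of 0.07. *Smad6*, an inhibitory SMAD, led it at 10.62 and 10.65 against 7.77 and 7.48 (8.03-fold).

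Mitosis genes stood higher in RANKL by moderate amounts. Of 56 tested, 27 (48.2%) were called higher and none lower by limma (0 lower at an unadjusted p under 0.05, and 0 in the authors' deposited table). The median was 0.73, with 0.57 against ENRI 1 and 0.98 against ENRI 2, and 14 were called with the 4 libraries alone. *Kif11*, the motor that pushes spindle poles apart, read 9.75 and 9.86 in RANKL against 8.67 and 8.35 in ENRI (difference 1.30, SE 0.16). *Bub1b*, the checkpoint kinase BubR1, read 8.97 and 8.98 against 7.94 and 7.75 (difference 1.14, SE 0.15). *Incenp*, the scaffold of the chromosomal passenger complex, read 10.27 and 10.5 against 8.58 and 7.65. The stem cell culture stood above both others in 45 of the 56 genes. Members chosen after their values were seen show the range within the list: *Mki67* (Ki-67) differed by 1.47, *Ccnb1* (cyclin B1) by 0.47 and *Ccna2* (cyclin A2) by 0.06.

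Mitosis promoters are known for the CHR element, TTTGAA, bound by the DREAM and MuvB complexes. It was present on either strand in 34 of the 46 mitosis genes with a listed promoter (73.9%), against 15.3% of all tested genes, and CCAAT was also present in 73.9%, against 42.4%. Of the 34 genes with the element 19 were called higher, and of the 12 without it 5. The promoter of *Cenpf*, a kinetochore protein, is shown with TTTGAA in capitals. It was picked after its values, 9.71 and 9.72 in RANKL against 8.50 and 7.51 in ENRI, were seen.
Cenpf (chr1:189688037-189688336, minus strand, GRCm38.p6): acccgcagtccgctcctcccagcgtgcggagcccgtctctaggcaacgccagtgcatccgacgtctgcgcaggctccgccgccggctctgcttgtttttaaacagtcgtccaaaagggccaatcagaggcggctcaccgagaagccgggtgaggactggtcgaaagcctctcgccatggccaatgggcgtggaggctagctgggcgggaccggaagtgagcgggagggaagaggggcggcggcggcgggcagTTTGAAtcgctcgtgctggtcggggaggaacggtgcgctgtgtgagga
The element lies just after the start. Over all genes called higher, TTTGAA was in 16.8%.

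Of 48 DNA replication genes, 9 were called higher (18.8%, against 10.4% of all tested genes) and 1 lower (2.08%, against 10.5%), and 2 were called with the 4 libraries alone. The median was 0.40, with 0.12 against ENRI 1 and 0.62 against ENRI 2, and 37 of the 48 lay above 0. *Pold1*, the catalytic subunit of DNA polymerase delta, read 8.39 and 8.42 against 7.01 and 6.96. *Pcna*, its sliding clamp, went the other way at 7.33 and 7.22 against 8.13 and 9.14. Replication-dependent histones had 12 of 67 called lower, 6 higher and a median of -0.38. The balance of calls turned with the 4 libraries alone, with 2 lower and 4 higher, and in the authors' deposited table, with 5 lower and 6 higher. *Hist1h2bc* read 9.45 and 9.61 against 10.67 and 10.71. The linker histone *Hist1h1b* was the reverse, at 9.44 and 9.76 against 8.09 and 7.60. Histone genes are short and have near-identical copies, so the values of single members are uncertain, and in 54 of the 67 WENRC stood above both other cultures.

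Growth-related lists were milder, and ribosomal proteins and chaperones were called at about the share of all tested genes. Ribosome biogenesis had 14 of 58 called higher (24.1%, against 10.4% of all tested genes). None were called lower by limma (1 lower at an unadjusted p under 0.05, and 0 in the authors' deposited table). With the 4 libraries alone 2 were called. Its median was 0.22 against ENRI 1 and 0.72 against ENRI 2. *Tcof1*, the nucleolar protein treacle, read 9.11 and 9.45 against 8.19 and 7.98. Cytoplasmic ribosomal proteins had 12 of 82 called higher and 4 lower (19.5% called, against 20.9% of all tested genes), and 6 called with the 4 libraries alone. Their median was 0.00 against ENRI 1 and 0.48 against ENRI 2. Among the single genes, *Rps9* read 10.17 and 10.33 against 8.92 and 8.69. Among chaperones, 5 of 32 were called higher and 2 lower (21.9% called, against the same 20.9%), and 5 were called with the 4 libraries alone. Their median was -0.07 against ENRI 1 and 0.39 against ENRI 2. As single genes, both HSP90 genes were called higher: *Hsp90aa1* read 10.44 and 10.56 against 9.19 and 8.77, and *Hsp90ab1* 13.13 and 13.49 against 11.49 and 10.63.

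Subunits of the Polycomb complexes, which lay down H3K27me3 (PRC2) and ubiquitinate histone H2A (PRC1), had 12 of 37 called higher and 2 lower, with a median of 0.42 (0.31 against ENRI 1 and 0.64 against ENRI 2). *Kdm2b*, which recruits a PRC1 variant to CpG islands, read 11.44 and 11.56 against 9.19 and 8.76 (5.76-fold). *Jarid2*, an accessory subunit of PRC2, read 15.07 and 15.17 against 12.56 and 12.70 (5.62-fold), and *Pcgf5* read 10.78 and 10.81 against 9.46 and 9.05. The enzyme *Ezh2* differed by 0.78 (adjusted p = 0.0481, limma, and 0.0981 with the 4 libraries alone), and *Suz12* and *Eed*, which were not called, by 0.57 and 0.42. These 3 were picked after their values were seen.

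**Figure D2:**
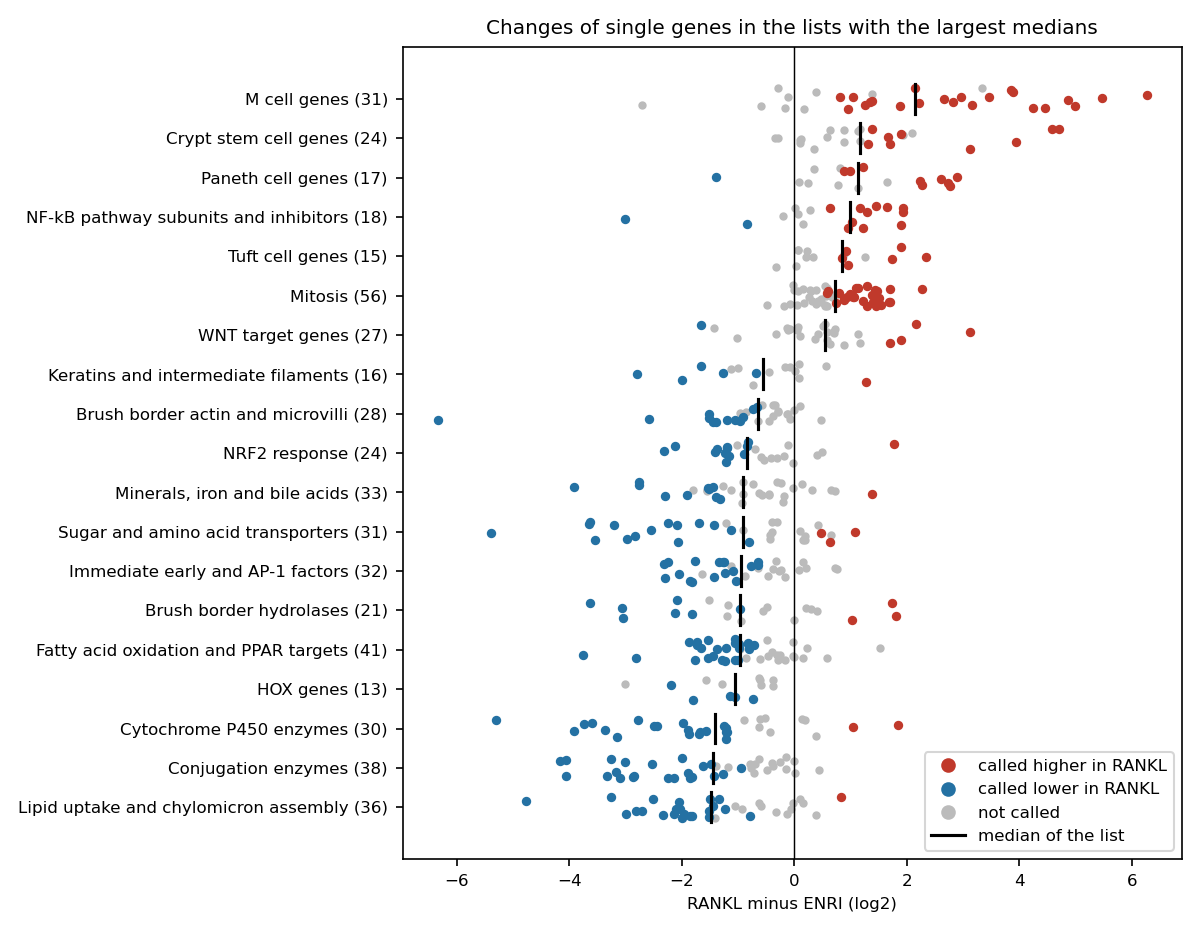
Difference RANKL minus ENRI (log2) of every tested gene in the 19 lists with at least 10 tested genes and a median of at least 0.5 in size, with genes called higher in red, called lower in blue, not called in grey and the list median as a black bar; vertical scatter within a list has no meaning. The mitosis list is a tight cloud between -0.48 and 2.27, whereas the P450, conjugation and transporter lists reach -5.29, -4.16 and -5.39.

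On the ENRI side, lipid uptake and chylomicron assembly had the lowest median of all lists, -1.48 (-1.17 against ENRI 1 and -1.85 against ENRI 2). Of 36 genes, 22 were called lower in RANKL and 1 higher, and 19 lower with the 4 libraries alone. *Fabp2*, the intestinal fatty acid binding protein (NM_007980, chr3:122597990-122602424, plus strand, mm9), read 6.05 and 6.49 in RANKL against 10.30 and 11.77 in ENRI (27.2-fold lower, adjusted p = 0.00379, limma). *Agpat2*, an acyltransferase of triglyceride synthesis, read 8.35 and 8.32 against 10.23 and 10.72, and *Apob*, the structural protein of the chylomicron, 11.71 and 11.85 against 13.92 and 13.84. In these 3 genes RANKL lay nearer to WENRC than to ENRI. *Soat1*, which esterifies cholesterol, was the exception at 9.68 and 9.72 against 8.82 and 8.92. Members that were not called included *Npc1l1*, the cholesterol transporter of the brush border (difference 0.15), picked after its values were seen.

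Fatty acid oxidation and PPAR targets had 24 of 41 called lower and none higher by limma (2 higher at an unadjusted p under 0.05, and 1 in the authors' deposited table), with a median of -0.97 (-0.75 against ENRI 1 and -1.18 against ENRI 2). With the 4 libraries alone 12 were called. *Angptl4*, a secreted inhibitor of lipoprotein lipase, read 5.96 and 5.32 against 9.0 and 9.80. *Acaa2*, the thiolase of the last step of beta-oxidation, read 7.84 and 7.99 against 10.23 and 11.21, and *Acadl*, a long-chain acyl-CoA dehydrogenase, 8.97 and 9.01 against 10.5 and 11.02. Fatty acid synthesis was different: 5 of 22 were called higher and 1 lower. Both desaturases of polyunsaturated fatty acids led it, *Fads2* at 11.28 and 11.49 against 9.04 and 9.22 and *Fads1* at 9.45 and 9.52 against 7.27 and 7.35. They lie side by side on chromosome 19, and without that chromosome the list median was 0.16 in place of 0.38. Cholesterol synthesis had 7 of 28 called lower and 1 higher, with 3 called by the 4 libraries alone. *Insig1*, a sterol-sensing brake of the pathway, read 9.92 and 10.03 against 10.91 and 11.84.

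Drug metabolism set the cultures apart as strongly as lipid handling. Of 30 cytochrome P450 genes and their partners, 20 were called lower and 2 higher (73.3% called), with a median of -1.41 (-1.20 against ENRI 1 and -1.81 against ENRI 2). *Cyp3a25* (NR_030782, chr5:146788770-146821194, minus strand, mm9) read 6.81 and 6.39 in RANKL, 11.53 and 12.26 in ENRI, and 9.78 and 8.70 in WENRC. *Cyp2c29* read 6.56 and 6.50 against 10.03 and 10.52, and *Cyp2b10*, an enzyme induced by the receptor CAR, read 7.58 and 7.46 against 10.64 and 11.58. The Cyp2j members were split, with *Cyp2j5* at 7.5 and 7.44 against 5.66 and 5.61. P450 genes stand in clusters of close copies, so reads of neighbours may be shared. Without chromosome 19, which holds the Cyp2c cluster, the list median was -1.25.

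Conjugation enzymes had 22 of 38 called lower and none higher by limma (0 higher at an unadjusted p under 0.05, and 0 in the authors' deposited table), with a median of -1.45 (-1.19 against ENRI 1 and -1.85 against ENRI 2). *Gsta4*, a glutathione transferase for lipid aldehydes (NM_010357, chr9:78039773-78057156, plus strand, mm9), read 7.98 and 7.79 against 11.09 and 11.18, a difference of -3.25 (SE 0.15, adjusted p = 0.000963, limma). *Gsta1* read 8.39 and 8.61 against 12.19 and 13.12, and *Ugt2b5*, a UDP-glucuronosyltransferase, 5.40 and 5.43 against 8.87 and 10.08. The NRF2 list of antioxidant genes had 12 of 24 called lower and 1 higher, with a median of -0.84 (-0.79 against ENRI 1 and -0.92 against ENRI 2). *Prdx1*, a peroxiredoxin, read 9.24 and 9.23 against 10.47 and 10.46. *Gclm*, the modifier subunit of the enzyme that starts glutathione synthesis, read 8.19 and 8.29 against 9.28 and 9.53. The factor itself, *Nfe2l2* (NRF2), read 12.13 and 12.17 against 13.35 and 13.76. The exception was *Gpx3*, a secreted glutathione peroxidase, at 9.76 and 9.70 against 8.08 and 7.84.

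Promoters of a member of each of these groups are shown, with the letters of an antioxidant response element (TGACNNNGC) in capitals for *Gclm* and of an HNF4 site (CAAAGTCCA) for *Cyp3a11*, searched on both strands. HNF4 factors bind many enterocyte and liver genes. Both genes were picked after their values were seen, and *Cyp3a11* read 8.15 and 8.0 in RANKL against 11.26 and 12.74 in ENRI.
Gclm (chr3:122245307-122245606, plus strand, GRCm38.p6): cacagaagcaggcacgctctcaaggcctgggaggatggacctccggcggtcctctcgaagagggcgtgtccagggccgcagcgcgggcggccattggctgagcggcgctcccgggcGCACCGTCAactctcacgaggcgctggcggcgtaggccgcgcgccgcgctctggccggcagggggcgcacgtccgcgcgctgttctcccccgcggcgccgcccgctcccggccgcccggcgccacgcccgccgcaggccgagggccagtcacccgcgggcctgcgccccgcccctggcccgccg
Cyp3a11 (chr5:145879805-145880104, minus strand, GRCm38.p6): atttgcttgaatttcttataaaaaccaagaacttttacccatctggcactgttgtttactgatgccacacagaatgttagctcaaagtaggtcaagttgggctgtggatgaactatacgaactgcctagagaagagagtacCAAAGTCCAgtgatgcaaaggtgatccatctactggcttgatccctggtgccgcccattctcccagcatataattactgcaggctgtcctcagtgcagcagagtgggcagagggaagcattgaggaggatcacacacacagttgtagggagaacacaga
The antioxidant motif was in 8 of 20 genes of the NRF2 list (40.0%) and in 16.6% of all tested genes with a promoter. Of those 8, 6 were called lower, as were 5 of the 12 without it. The HNF4 motif was rare, in 0.631% of all tested genes, 1.26% of those called lower (17 of 1351) and 0.303% of those called higher (4 of 1321).

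At the brush border, enzymes and structure both stood lower in RANKL, with exceptions among the enzymes. Of 21 hydrolases, 7 were called lower and 3 higher, with a median of -0.96 (-0.60 against ENRI 1 and -1.22 against ENRI 2). *Mep1b*, the beta subunit of the metalloprotease meprin, read 9.58 and 9.61 against 11.42 and 11.92 (4.23-fold lower), and *Ggt1*, gamma-glutamyltransferase, 6.58 and 6.71 against 9.07 and 10.35. *Xpnpep2*, an aminopeptidase, was higher at 8.09 and 8.30 against 7.26 and 7.07. In 18 of the 21 genes the WENRC level lay below both other cultures. Of 28 genes of microvillar actin and membrane, 12 were called lower and none higher by limma (1 higher at an unadjusted p under 0.05, and 0 in the authors' deposited table). *Scin*, the actin-severing protein scinderin, read 5.88 and 6.04 against 11.78 and 12.79 (80.2-fold lower). *Cobl*, an actin nucleator of microvilli, read 12.15 and 12.12 against 13.46 and 13.82, a smaller gap and closer to the list median of -0.65.

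Of 31 sugar and amino acid transporters, 15 were called lower and 3 higher, with a median of -0.91 (-0.72 against ENRI 1 and -1.30 against ENRI 2). *Slc15a1*, the peptide transporter PEPT1, read 7.42 and 7.58 against 10.12 and 10.81. *Slc5a4b*, of the sodium-glucose family, read 5.19 and 5.13 against 9.78 and 11.32, and *Slc16a10*, an aromatic amino acid transporter, 7.41 and 6.99 against 10.34 and 11.14. *Slc1a5*, the glutamine transporter ASCT2, was the reverse at 9.43 and 9.57 against 8.53 and 8.30, below WENRC at 10.47 and 10.52. Mineral, iron and bile acid genes had 10 of 33 called lower and 1 higher. *Nr1h4*, the bile acid receptor FXR, read 8.45 and 8.23 against 10.73 and 11.44, and *Slc40a1*, the iron exporter ferroportin, 8.06 and 8.25 against 10.14 and 9.98. The chloride channel *Cftr* was higher, at 13.20 and 13.27 against 12.17 and 11.51. In vitamin A handling 8 of 28 were called lower and 1 higher. *Rbp2*, the intracellular carrier of retinol, read 7.52 and 7.49 against 12.31 and 13.52, and *Aldh1a1*, which makes retinoic acid, 8.14 and 7.94 against 11.54 and 12.64, whereas the receptor *Rarb* was higher at 10.45 and 10.42 against 9.13 and 9.64.

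**Figure D3:**
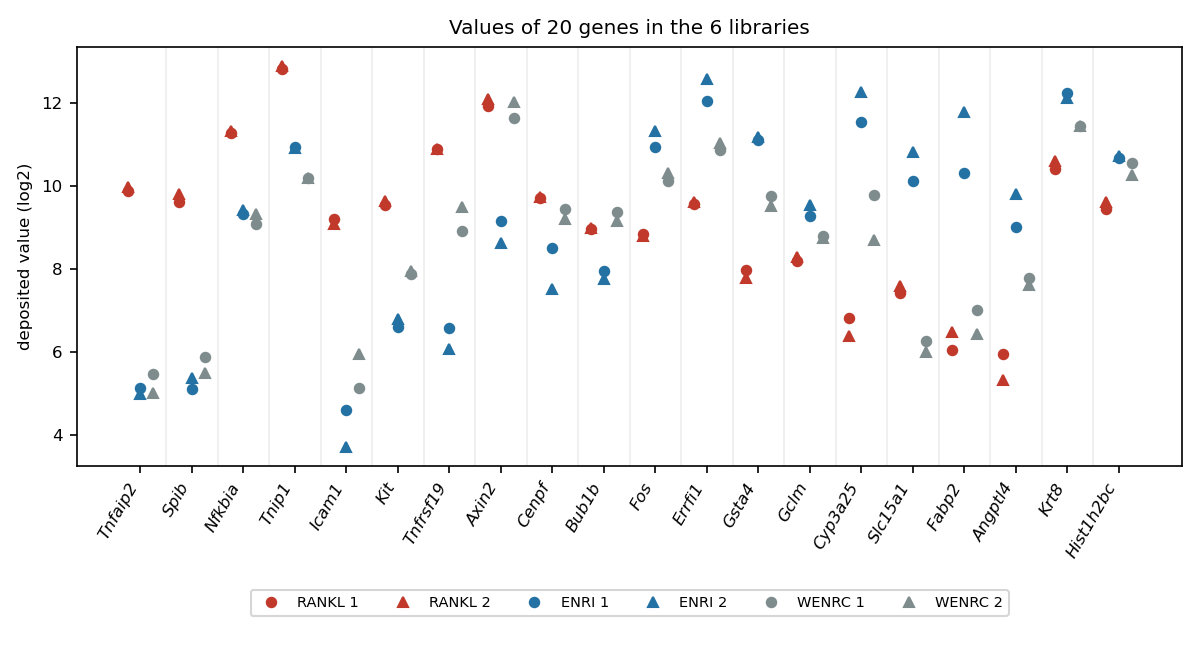
Deposited values (log2) of 20 genes in the RANKL (red), ENRI (blue) and WENRC (grey) libraries, circles for library 1 and triangles for library 2. *Fabp2* lies at 6.05 and 6.49 in RANKL and at 10.30 and 11.77 in ENRI, and WENRC lies near ENRI for *Tnfaip2* and *Spib* but near RANKL for *Fabp2* and *Axin2*.

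Immediate early genes, which answer growth factor and stress signals within minutes through the AP-1 and EGR factors, were lower in RANKL. Of 32 tested, 17 were called lower and none higher by limma (1 higher at an unadjusted p under 0.05, and 0 in the authors' deposited table), with a median of -0.95 (-0.73 against ENRI 1 and -1.27 against ENRI 2). *Fos* (NM_010234, chr12:86814851-86818219, plus strand, mm9) read 8.85 and 8.78 in RANKL, 10.92 and 11.32 in ENRI, and 10.11 and 10.30 in WENRC, a difference of -2.31 from ENRI (SE 0.17, adjusted p = 0.00215, limma). *Zfp36* and *Zfp36l2*, which destabilise AU-rich messages, read 9.05 in both RANKL libraries against 10.87 and 11.72, and 8.35 and 8.39 against 9.46 and 9.74. Here RANKL lay below both other cultures. Of the feedback genes of the EGF receptor and ERK pathway, 9 of 34 were called lower and 1 higher. Their median of -0.42 rested on ENRI 1, with -0.47 against ENRI 1 and -0.03 against ENRI 2, and 12 of the 34 lay above 0. *Dusp6*, the ERK phosphatase, read 6.96 and 7.25 against 9.56 and 9.65, *Errfi1*, an inhibitor of the receptor, 9.57 and 9.62 against 12.05 and 12.58, and *Hbegf*, a ligand, 8.77 and 8.86 against 11.43 and 11.70. *Dusp16*, a phosphatase for stress kinases, was slightly higher (difference 0.59). Immediate early genes also answer handling of the cells, whose part in this difference was not tested.

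Keratins and lamins had 5 of 16 called lower and 1 higher. *Krt8* and *Krt19*, keratins of simple epithelia, read 10.41 and 10.60 against 12.24 and 12.10, and 10.09 and 10.21 against 12.39 and 11.92. Integrins and basement membrane genes were called in both directions, 8 of 42 higher and 6 lower, and their median changed sign between the ENRI libraries (-0.34 against ENRI 1 and 0.40 against ENRI 2). The balance of calls turned with the 4 libraries alone, with 3 higher and 5 lower, and by the authors' deposited adjusted p, with 7 higher and 10 lower. Of the 42 genes, 13 overlap another gene, 6 of them called. *Itgb8*, an integrin that activates TGF-beta, read 10.41 and 10.45 against 5.15 and 5.76, and *Nid1*, a basement membrane linker, 4.44 and 4.26 against 6.54 and 7.10. Tight junction and polarity genes had 6 of 37 called lower and 1 higher (18.9%), led by *Pard6b* at 9.75 and 9.73 against 11.79 and 11.80.

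Lists of other secretory cells were higher in part. Of all tested genes, 10.4% were called higher. Paneth cell genes had 9 of 17 called higher (52.9%) and 1 lower, with a median of 1.14, and 0.99 without the alpha-defensins. *Kit*, the stem cell factor receptor carried by secretory cells of the crypt, read 9.54 and 9.64 against 6.61 and 6.80, and *Nod2*, a sensor of bacterial muramyl dipeptide, 8.72 and 8.83 against 6.31 and 6.03. *Mmp7*, the protease that matures defensins, read 7.56 and 7.51 against 5.19 and 5.40. The marker *Lyz1*, lysozyme, was not called (8.09 and 7.99 against 5.46 and 7.33). Of 15 tuft cell genes, 6 were called higher and none lower by limma (0 lower at an unadjusted p under 0.05, and 0 in the authors' deposited table), led by *Gfi1b* at 5.37 and 5.46 against 2.98 and 3.17 and *Pou2f3*, the factor that defines tuft cells, at 7.74 and 7.68 against 5.89 and 5.74. Goblet genes had 5 of 17 called higher (29.4%) and 2 lower, but their median was -0.23 and only 7 of the 17 lay above 0. Enteroendocrine genes did not stand apart: 2 of 19 were called higher (10.5%, the share of all tested genes being 10.4%) and none with the 4 libraries alone, with a median of -0.05. Whether more cells of these types were present in RANKL was not tested.

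Antimicrobial lectins and innate sensors were called in both directions, 11 of 41 lower and 7 higher. *Reg3b*, an antibacterial lectin, read 5.38 and 5.58 in RANKL, 9.81 and 10.27 in ENRI, and 3.26 and 3.84 in WENRC. *Reg3g*, of the same family and picked after its values were seen, was the reverse of it at 9.29 and 9.44 in RANKL against 7.20 and 6.97 in ENRI. *Il18* read 4.36 and 5.43 against 8.83 and 9.40, and *Ncf4*, a subunit of the phagocyte oxidase, 8.39 and 8.36 against 2.49 and 2.88. In the interferon list 9 of 44 were called lower and 2 higher. *Ifnlr1*, the receptor for lambda interferons, read 6.06 and 5.86 against 9.12 and 9.41. Antigen presentation had 5 of 28 called higher and 4 lower. *H2-M2*, a non-classical class I gene, read 10.19 and 10.21 against 3.20 and 3.23 (126.0-fold), the invariant chain gene *Cd74* 8.03 and 8.12 against 6.05 and 6.17, and the class I gene *H2-T3* 5.85 and 5.77 against 7.11 and 7.57. Leukocyte and endothelial markers had 0 of 10 called by limma (3 at an unadjusted p under 0.05, and 0 in the authors' deposited table).

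M cells are known for uptake and transport of particles, and 3 of the 4 lists of that machinery were called less than the 20.9% of all tested genes. Endocytosis and transcytosis coats had 3 of 45 called higher and 4 lower (15.6%), exocytosis and SNARE genes 5 of 45 higher and 1 lower (13.3%), autophagy genes 5 of 36 higher and 1 lower (16.7%), and endosome and lysosome genes 5 of 50 higher and 6 lower, a share just above that of all tested genes. Single members stood out. *Stx11*, a SNARE of cytotoxic granules, read 9.25 and 9.23 against 7.06 and 4.87, *Uvrag*, an autophagy regulator, 12.07 and 12.09 against 10.65 and 10.39, and *Lipa*, lysosomal acid lipase, 7.71 and 7.38 against 10.15 and 10.91. The respiratory chain had 6 of 61 called lower and 1 higher (11.5%), below the share of all tested genes in both directions, while 11 of its 61 genes lay above 0 and its median was -0.25. Glycolysis and hypoxia genes had 9 of 37 called lower and 3 higher. *Gapdh* read 8.95 and 9.08 against 10.14 and 10.68, and *Pfkfb3*, which makes the activator of phosphofructokinase, was the reverse at 11.60 and 11.56 against 9.97 and 9.76. *Pck1*, the enzyme that starts gluconeogenesis, read 4.03 and 4.05 against 8.05 and 9.98.

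Of transcription factor families, SOX and forkhead genes had 8 of 31 called higher and 3 lower. *Sox8*, an M cell factor, read 6.94 and 6.97 against 2.57 and 2.83, *Foxp4* 12.42 and 12.55 against 10.76 and 10.64, and *Sox4* 11.84 and 11.97 against 9.0 and 7.27. *Sox8* passed the filter on low values only through the RANKL libraries. Among 47 intestinal identity factors and nuclear receptors, 9 were called lower and 2 higher (23.4% called, against 20.9% of all tested genes). *Esrrg*, the orphan receptor ERR gamma, was far the highest of the 2 at 14.02 and 14.12 against 6.80 and 8.82. *Thrb*, the thyroid hormone receptor beta, read 9.77 and 9.81 against 11.36 and 12.57. Circadian genes had 7 of 21 called lower and 2 higher, but 3 lower and 2 higher with the 4 libraries alone. Their median was -0.02 against ENRI 1 and -0.61 against ENRI 2. *Bhlhe40* read 9.25 and 9.24 against 10.54 and 11.01, and *Npas2* 13.22 and 13.21 against 11.53 and 11.03. Of 39 HOX genes, 13 passed the filter on low values, 5 of these were called lower, and all 13 differences were below 0. The median was -1.28 against ENRI 1 and -0.62 against ENRI 2. Of the 13, 5 overlap another gene, 3 of them called. Their median level in RANKL, 3.76 and 3.83, lay near the filter, so members may have passed it through the cultures where they were higher. The shared direction is therefore a description only. *Hoxb3* read 5.29 and 5.11 against 7.80 and 6.98, and 8.06 and 7.69 in WENRC.

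Remaining lists lay close to all genes or were split, and their shares called are given here beside the 20.9% of all tested genes. Proteasome genes had 5 of 35 called higher (14.3% called) and none lower by limma (0 lower at an unadjusted p under 0.05, and 0 in the authors' deposited table). The single gene *Psmd7*, a lid subunit, read 9.83 and 10.05 against 8.42 and 8.28. tRNA synthetases and ATF4 targets had 9 of 42 called higher and 2 lower (26.2%), and mitochondrial ribosome genes 4 of 78 higher and 6 lower (12.8%). In the ER folding list 9 of 50 were called lower and 3 higher (24.0%). There *Xbp1*, the factor spliced by IRE1, read 8.97 and 8.83 against 10.04 and 10.46, and *Calr*, the chaperone calreticulin, the reverse at 11.44 and 11.57 against 10.33 and 9.95. G1 cyclins, inhibitors and p53 targets had 3 of 42 called in each direction (14.3%), with *Btg2*, an antiproliferative p53 target, at 9.10 and 9.19 against 11.24 and 11.25. The TCA cycle had 5 of 25 called lower and 3 higher (32.0%), and ETS factors 4 of 22 higher and 2 lower (27.3%). Adherens junctions and desmosomes had 3 of 27 lower and 2 higher (18.5%).

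Gene families formed from symbols alone, without hand-written lists, gave a second view. Of 115 families with at least 15 tested genes, the lowest medians belonged to carboxylesterases (Ces, -0.85), UDP-glucuronosyltransferases (Ugt, -0.79) and cytochromes P450 (Cyp, -0.66). Next came Abhd hydrolases (-0.48), Mfsd transporters (-0.48), Klf factors (-0.46), Snora small RNAs (-0.45) and Aldh dehydrogenases (-0.44). The lowest values rested more on ENRI 2: Ces was at -0.44 against ENRI 1 and -1.17 against ENRI 2, Ugt at -0.27 and -1.28, and Cyp at -0.45 and -0.99. Against ENRI 1 alone, the Krt (-0.82) and Snord (-0.59) families were lower than these 3. In the Cyp family 29 of 71 genes were called lower and 4 higher. The leading genes of the others were *Ces2d-ps* (-2.91), *Abhd3* (-2.96), *Mfsd2a* (-1.74), *Klf3* (-1.35) and *Snora65* (-1.31), and all 33 Snora genes lie inside or over other genes whose reads they share. At the top, all 17 tested alpha-defensin (Defa) genes were called higher with a median of 1.45, led by *Defa34* (1.91). These are near-identical copies in 1 cluster, so their values are not independent and single genes are uncertain. They were followed by Bcl (0.52, *Bcl2a1a* 2.61), Rad (0.49, *Rad50* 1.18), Phf (0.38, *Phf21b* 1.24), Cep (0.36, *Cep85* 2.86), Dhx (0.34, *Dhx29* 0.78), Ddx (0.32, *Ddx46* 1.26) and Rbm (0.31, *Rbm25* 1.37). Against ENRI 1 and ENRI 2, Defa was at 1.80 and 1.18, Rad at 0.26 and 0.62, and Phf at 0.24 and 0.51. Symbols that share letters need not share function. The Cep family holds centrosomal proteins, Rad DNA repair proteins, and Dhx, Ddx and Rbm RNA helicases and RNA-binding proteins.

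**Figure D4:**
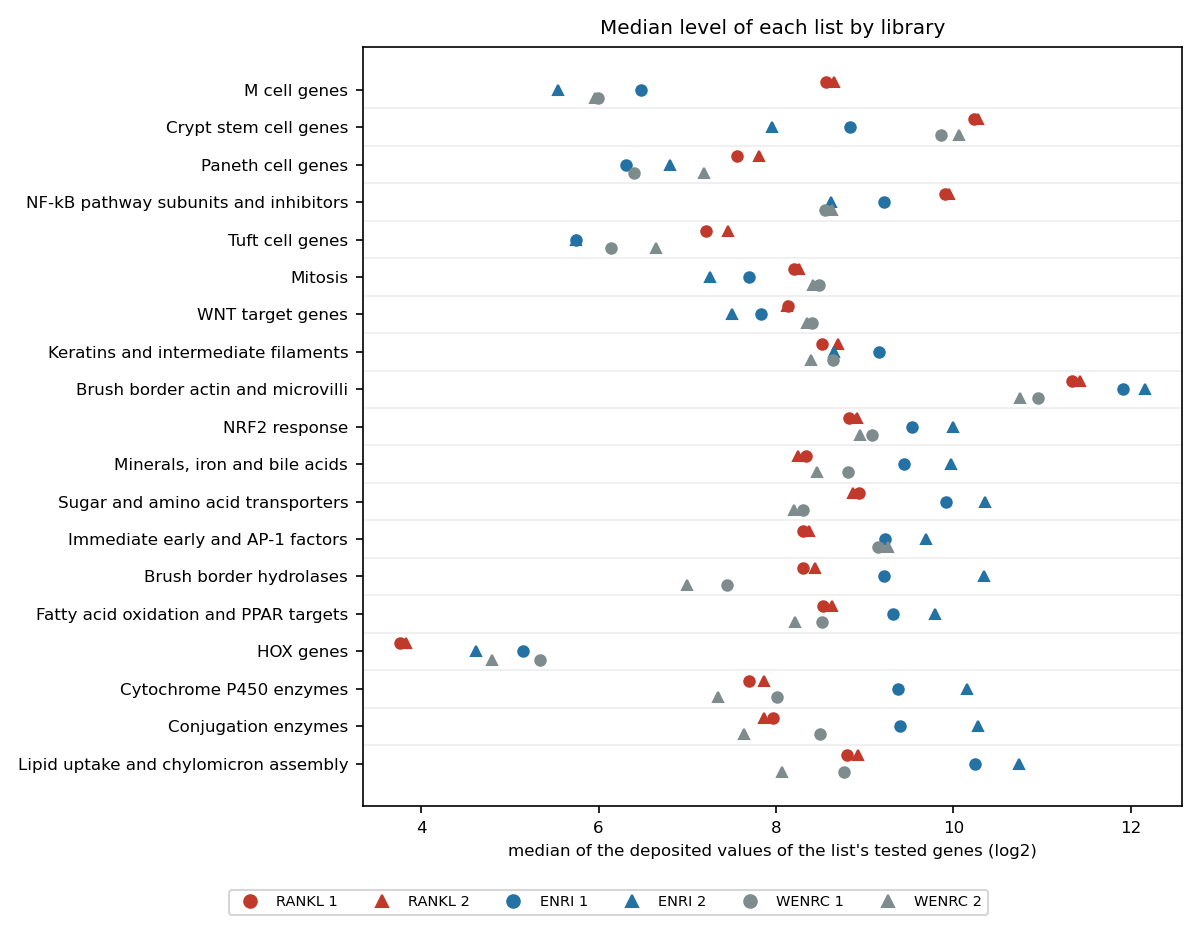
Median deposited value (log2) of each list's tested genes in the 6 libraries, for the 19 lists with a median of at least 0.5 in size (RANKL red, ENRI blue, WENRC grey, circles library 1, triangles library 2); levels of different lists are not comparable, since longer genes collect more reads. In hydrolases RANKL (8.31 and 8.44) lies between WENRC (7.45 and 7.0) and ENRI (9.22 and 10.35), and in crypt stem cell genes it lies at 10.23 and 10.28, above the list medians of WENRC (9.86 and 10.07) and ENRI (8.83 and 7.96), although gene by gene WENRC is above both other cultures in 14 of the 24.

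WENRC placed the changes. Of the genes called higher in RANKL, WENRC lay between the other cultures and nearer to ENRI in 42.5%, between and nearer to RANKL in 23.3%, below both in 25.2% and above both in 9.03%. Of the genes called lower, it lay between and nearer to RANKL in 40.5%, between and nearer to ENRI in 25.7%, below both in 25.8% and above both in 7.96%. These shares use the RANKL and ENRI values of the fit and are a description. Over all tested genes, WENRC lay below both in 31.7%, above both in 31.0%, and between them in 18.9% (nearer to RANKL) and 18.4% (nearer to ENRI). By list, WENRC lay below both in 15 of 18 NF-kB subunits and inhibitors and above both in 40 of 48 DNA replication genes.

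The histone mark H3K27me3 was measured in RANKL and WENRC, and the authors called regions with more of it in either culture, without replicate values. A region higher in RANKL lay within 5 kb of the start in 12.9% of genes called higher in RANKL than ENRI, 18.0% of those called lower and 18.2% of all tested genes. For regions higher in WENRC the shares were 8.85%, 3.38% and 5.02%. Among M cell genes such a region lay near 7 of 31 (22.6%): *Sox8*, *Esrrg*, *Gp2*, *Tnfaip2*, *Ccl9*, *Icam1* and *Atoh8*, each called higher in RANKL. HOX genes had a RANKL-higher region in 10 of 13 (76.9%), and so did crypt stem cell genes in 14 of 24 (58.3%) and WNT targets in 16 of 27 (59.3%). Like shares were found in lists whose median difference was near that of all tested genes. These were enteroendocrine genes, with 11 of 19 (57.9%), and fibroblast and muscle markers, with 4 of 5 (80.0%). Among the crypt genes with such a region, *Olfm4*, *Smoc2*, *Tnfrsf19* and *Mex3a* were called higher in RANKL than in ENRI.

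By chromosome, the calls were even with 1 exception. On chromosome 19, 137 of 604 tested genes (22.7%) were called higher and 45 (7.45%) lower, and the median difference was 0.24, against medians from -0.08 to 0.05 and shares called higher from 7.51% to 11.8% on the other chromosomes. Its median stood above that of the other autosomes by 0.20 to 0.272 in each of the 4 pairs of a RANKL with an ENRI library and by 0.31 to 0.39 in each pair with a WENRC library. Between libraries of the same culture it moved by -0.022 (RANKL), -0.056 (ENRI) and 0.022 (WENRC). Among the genes above, *Nfkb2*, *Il33*, *Lipa*, *Kif11*, *Incenp*, *Pcgf5*, *Fads1*, *Fads2*, *Aldh1a1* and *Cyp2c29* lie there, and the part of this shift in their values was not tested. Without chromosome 19, 3255 genes were called, 1571 higher and 1684 lower.

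**Figure D5:**
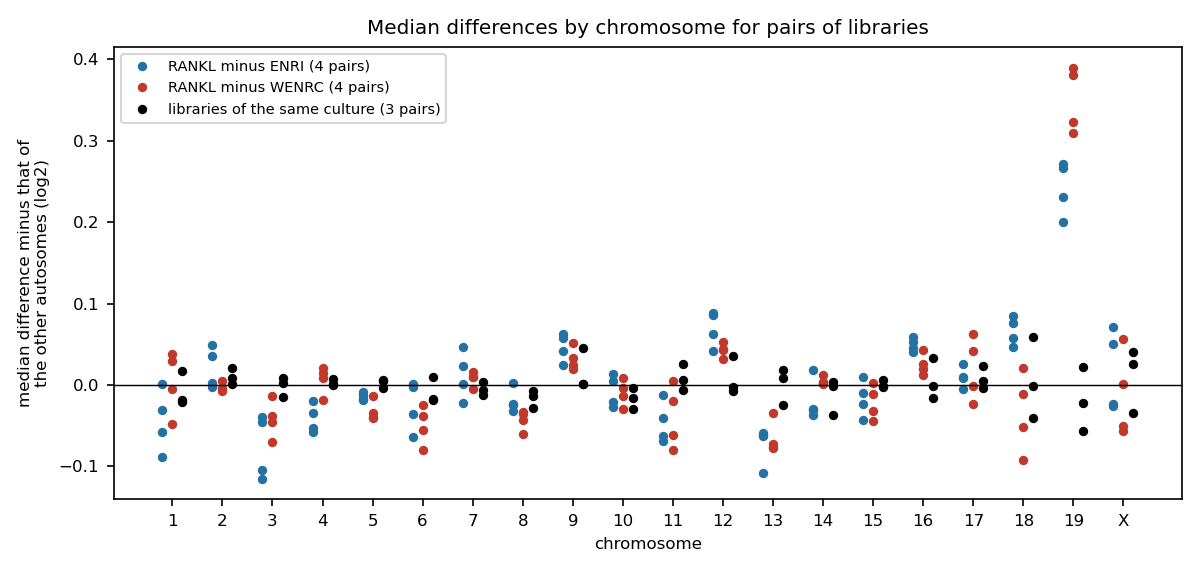
Median difference of each chromosome's tested genes minus that of the other autosomes (log2) for pairs of libraries: RANKL minus ENRI (blue, 4 pairs), RANKL minus WENRC (red, 4 pairs) and 2 libraries of the same culture (black, 3 pairs). Chromosome 19 lies between 0.20 and 0.39 in the 8 pairs of different cultures, and the same-culture pairs lie near 0.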

How the data were processed

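GRO-seq libraries of mouse organoid cultures (RANKL, ENRI and WENRC, 2 each) were used from a deposited table. Per the file headers, the authors counted reads over whole RefSeq genes of mm9 with HOMER and compared cultures with its differential expression tool. The submitters' processing notes name Bowtie2 2.3.4.1, HOMER and DESeq2. The deposited log2 values were scaled across libraries by the authors' tool, and low values are shrunken as a regularized log transform does. The authors' deposited log2 fold change is ENRI minus RANKL and was turned, and their adjusted p-values were used only for comparison. For H3K27me3, regions and their fold over the other culture were deposited, per the file headers, with the RANKL libraries pooled. Read depth and strand handling are not given in the sources used here, so reads of overlapping genes cannot be told apart.

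Genes at 0 in all 6 libraries (2131) were dropped, and genes with at least log2 of 10 in at least 2 libraries were tested (16563). A gene could pass through the RANKL or the ENRI libraries alone, and its difference could then lie only on that side. One limma model (version 3.58.1, R 4.3.3, variance trend, 3 residual degrees of freedom) with 3 culture means was fitted to all 6 libraries. Tests were two-sided, with Benjamini-Hochberg adjustment over all tested genes and a threshold of 0.05. The numbers of the RANKL libraries are not mouse numbers and do not pair them with ENRI, so no block was used. Tested on simulated data for this comparison (16563 genes, 200 changed), 17.5% of changes of 1 on the log2 scale, 82.5% of changes of 2 and 95% of changes of 4 were recovered, and 16.9% of the calls fell on unchanged genes.

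The comparison, the 60 lists and the tests were chosen with earlier results of these data known. Lists are described by counts and medians, without a set test. The values of 1 list and of 1 further gene are not reported here. For each list, the text draws on the 3 called genes with the smallest p in the direction with more calls and the 1 in the other direction, and for each gene family on the called gene with the smallest p. Cell type markers are named as such, and other genes named only as members with a motif or a histone region, or shown otherwise, were chosen after their values were seen. Promoters came from RefSeq (GRCm38.p6) and matched 12527 tested genes by symbol. Alternatives were another set of libraries, filters, scalings, weights, a replicate block, exclusion of overlapping genes and of chromosomes, and each library left out. Python 3.11.15 and pandas 2.3.3 were used for summaries.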

Additional observations from a re-analysis of the deposited data

How the results depend on the processing

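With 2 libraries a culture, the calls depend on single libraries and depth is unknown. Leaving out 1 library in turn gave 64 to 6966 called genes, the 4 libraries alone gave 1925, and a log2 change of at least 1 gave 2011. The numbers of called genes under the other filters, scalings, library weights, exclusions and the authors' deposited adjusted p lay between 2702 and 3908, within 1.5 times 3464. With the replicate block 2712 genes were called, 2640 of them shared, although the numbers do not pair RANKL with ENRI. At a filter of log2 of 50 the median was 2.44 for M cell genes, -0.04 for antigen presentation, -0.40 for vitamin A handling and -1.69 for HOX genes. For genes without overlap it was 0.26 for NF-kB receptors, -0.26 for NF-kB targets and -0.27 for vitamin A handling. The NF-kB receptor median was also 0.26 without chromosomes X and Y and without chromosome 19. For fibroblast and muscle markers it was 0.09 after quantile normalization and 0.23 without chromosome 19. Leaving out 1 library in turn, the medians ranged from 1.73 to 2.22 (M cell), 0.85 to 1.03 (NF-kB subunits), 0.03 to 0.26 (NF-kB receptors), -0.15 to 0.01 (NF-kB targets) and -0.11 to 0.03 (antigen presentation). They ranged from -0.39 to -0.31 (vitamin A), -0.57 to -0.31 (glycolysis), 0.25 to 0.57 (WNT targets), -0.34 to 0.40 (integrins), -0.25 to -0.06 (goblet) and 0.93 to 1.22 (Paneth). They ranged from -0.39 to -0.12 (antimicrobial), 0.55 to 0.89 (tuft) and -0.11 to 0.11 (fibroblast and muscle). The median of leukocyte and endothelial markers, 0.08, was -0.33 at the filter of log2 of 50. The cause of these shifts was not tested.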

Other observations

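On chromosome 19, genes were called higher in RANKL along most of its length. By windows of 10 Mb (mm9), the median difference was 0.21 from 0 to 10 Mb (213 genes), 0.27 from 10 to 20 Mb (74 genes) and 0.12 from 20 to 30 Mb (60 genes). It was -0.1 from 30 to 40 Mb (72 genes), where the Cyp2c genes lie, 0.40 from 40 to 50 Mb (123 genes), 0.35 from 50 to 60 Mb (51 genes) and 0.61 in the last window (11 genes).

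Calls varied with gene length. With the tested genes in 5 bins of equal size, from the shortest to the longest, the share called higher went from 7.15% in the first bin to 13.6% in the next to last and 11.2% in the last, and the share called lower from 11.6% to 8.09%. In the longest bin the median difference was 0.18 against ENRI 1 and -0.11 against ENRI 2. By mean level, the share of genes called in either direction was lowest in the bin of lowest level, at 5.22% higher and 4.47% lower, against 16.3% and 12.7% in the highest.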
